A study of Mus musculus with 12 samples.

Results

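The genes described here are 37 genes of the complement and coagulation systems that the liver expresses, taken by a fixed list of gene symbols from the 24910 genes (or transcripts without a symbol) of the deposited RNA-seq table, with the FPKM (fragments per kilobase of transcript, scaled to the mapped fragments of a library) of all transcripts of a gene summed. RNA-seq was performed on livers of 6 male C57BL/6J mice, 2 in each of 3 groups. Sham and VSG (vertical sleeve gastrectomy) mice were fed a high-fat diet with 60 kcal% fat from 8 weeks of age, for 14 weeks before and 14 weeks after surgery, so that diet and an operation were shared by both groups. Surgery on the VSG mice took out about 80% of the stomach, from its lateral side. The Sham operation removed none of it and only exposed it to handling and pressure. Both groups then recovered for a few days on a liquid diet. Control mice stayed on standard chow for 28 weeks without an operation, and Sham therefore differed from Control mice in both diet and surgery, which cannot be told apart. Accessible chromatin was profiled by FAIRE-seq, which recovers DNA free of nucleosomes, in the same livers.

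Complement is a cascade of plasma proteases and their substrates. Recognition proteins such as the mannose-binding lectins, or antibody bound by C1q, activate proteases that cleave C4, C2 and then C3, and the terminal components assemble into a pore in the membrane of the target. Coagulation is a parallel cascade that ends in thrombin and a fibrin clot, restrained by antithrombin and protein C and dissolved by plasmin. Hepatocytes secrete most of these proteins into plasma, and several of them are known acute phase proteins, whose transcription is raised by inflammatory cytokines.

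All 37 genes were present in the table, and 35 passed the filter, which asked for 2 or more mice with an FPKM of 1 or more. The other 2, Masp1 (a protease of the lectin pathway) and Klkb1 (plasma prekallikrein), were listed at 0 in all 6 mice. A listed 0 can be a failed estimate, since a gene abundant in one mouse can be listed at 0 in another of the same group. A further 3 members had such values after summing over transcripts, C2 in 3 mice, F13b in 4 mice and C8a in 1 mouse. On the FPKM scale, which is per transcript length, C3 was the most abundant member by its mean in Sham mice and Cfd the least abundant by its mean in Control mice, apart from the genes listed at 0. The sum over the 37 members was 10131 and 10461 for Control, 14533 and 18617 for Sham and 13175 and 12859 for VSG mice. Both sums of the Sham mice and both of the VSG mice therefore lay above those of the Control mice. The most abundant members weigh most in these sums, C3, Kng1 and Vtn having means of 2609, 2196 and 2114 in Sham mice.

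The libraries and the cells behind them were compared before the members. Deposited FPKM values carry no read totals, but the commonest ratio of values below 0.1 between 2 libraries gave depths of 0.676 to 1.56 times that of Control mouse 1. In bulk liver, fewer cells of a type and less RNA per cell cannot be told apart. Of 10 hepatocyte markers listed, 7 were analysed here and tested, and all 7 had a lower fitted value in Sham than Control mice, with a median log2 difference of -1.41, Hnf4a through a listed 0 in Sham mouse 1. Tat, tyrosine aminotransferase, was the one that passed the FDR, with limma adjusted p-values of 0.0445 in Sham and 0.0679 in VSG against Control, and neither call held where an FPKM of 1 was required in all 6 mice. In VSG mice 5 of the 7 were lower than in Control and 6 of the 7 higher than in Sham mice. Their summed FPKM, most of it from Apoa1 and Apoa2, was 29439 to 35537 in Control, 16870 to 32793 in Sham and 29582 to 31697 in VSG mice, the lowest sum being that of Sham mouse 2. The acute phase list, 12 of 17 genes analysed here, summed to 11545 to 12554 in Control, 35856 to 61010 in Sham and 10782 to 26832 in VSG mice, with 10 of its 12 tested genes higher in Sham than Control and 12 of 12 lower in VSG than Sham, none of them past the FDR. The Kupffer cell list summed to 36.3 to 52.9, 128 to 136 and 105 to 342, in the same order of groups, with 10 of 11 genes higher in Sham and 11 of 11 higher in VSG than Control mice, and the neutrophil list to 5.37 to 14.2, 43.3 to 47.4 and 17.0 to 23.0, with its marker Ly6g listed at 0 in every mouse. Sinusoidal endothelial genes summed to 21.6 to 47.4 in Control, 7.90 to 8.71 in Sham and 30.3 to 33.6 in VSG mice, stellate cell genes to 46.7 to 48.2, 17.5 to 30.9 and 50.5 to 65.9, and cholangiocyte genes to 30.7 to 32.8, 62.9 to 186 and 30.9 to 145, most of the last from Spp1. Exocrine pancreas genes reached at most 0.627 in sum. These values differed between the groups alongside those of the members, and their part in the results was not tested.

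Expression was first compared between Sham and Control mice, which asks what accompanied the high-fat diet and sham operation. Among the members whose groups did not overlap, C4bp, Cpb2, C3 and Mbl1 had the largest higher values in Sham mice, from 2.27 to 3.01 times the Control mean, and Mbl2, C8b, C6 and Proc the largest lower values. Of the 35 members tested, 25 were higher (71.4%, against 52.8% of all genes) and 10 lower, with a median log2 difference of 0.30, against a median of 0.04 over all 9869 genes tested. No member passed the FDR of 10% by limma on log2(FPKM + 1), where 0.284% of all genes did, and the smallest adjusted p-value of a member was 0.192, for C4bp. At an unadjusted p-value under 0.05 by limma, 9 of the 35 members were counted, 8 of them higher (C4bp, Cpb2, Serping1, Mbl1, C3, Vtn, Serpinf2 and C4b) and 1 lower (C8b), against 10.9% of all genes. In 17 of the 35 members both Sham mice lay above both Control mice, against 25.4% of all genes, and in 4 of the 35 both lay below, against 20.4%. With 2 mice against 2, an exact permutation test of a single gene cannot give a two-sided p-value below 0.333, and nothing in the labels says more of the replicates than that they are separate mice.

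Expression was next compared between VSG and Sham mice, which shared the diet and differed in the operation. Of the members without overlap between these groups, Cpb2, C4bp, Kng1 and Serping1 had the largest lower values in VSG mice, from 0.483 to 0.594 times the Sham mean, and Mbl2, Proc, Hc and C8b the largest higher values. Among the 35 members, 15 were higher (42.9%, against 59.6% of all genes) and 20 lower, with a median log2 difference of -0.08 against 0.08 over all genes, and 13 were higher with median centring and 11 with quantile normalization. No member passed the FDR, where 0.0507% of all genes did, and 4 of the 35 members (Mbl2 higher, and C4bp, Cpb2 and Serping1 lower) had an unadjusted p-value under 0.05 by limma, against 4.85% of all genes. Both VSG mice lay below both Sham mice in 9 of the 35 members, against 9.78% of all genes, and above them in 4 of the 35, against 18.5%.

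The last comparison was between VSG and Control mice. Cfd, C3, Hc and C4b had the largest higher values in VSG mice among members whose groups did not overlap, and C6 and C8b were the only 2 members in which both VSG mice lay below both Control mice. Here 29 members were higher (82.9%, against 61.3% of all genes) and 6 lower, with a median log2 difference of 0.29 against 0.13 over all genes. With values centred on the median of each mouse these medians were 0.15 and 0.02 and 23 members were higher, and 24 were with quantile normalization. No member passed the FDR, which 0.284% of all genes did, and Hc (higher) and C8b (lower) had an unadjusted p-value under 0.05 by limma, against 9.56% of all genes. Both VSG mice lay above both Control mice in 20 of the 35 members tested, against 33.7% of all genes, and below them in 2 of the 35, against 14.8%. The first comparison and the second share the Sham mice, the first and the third the Control mice, and the second and the third the VSG mice, so that their differences are not independent.

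**Figure D1:**
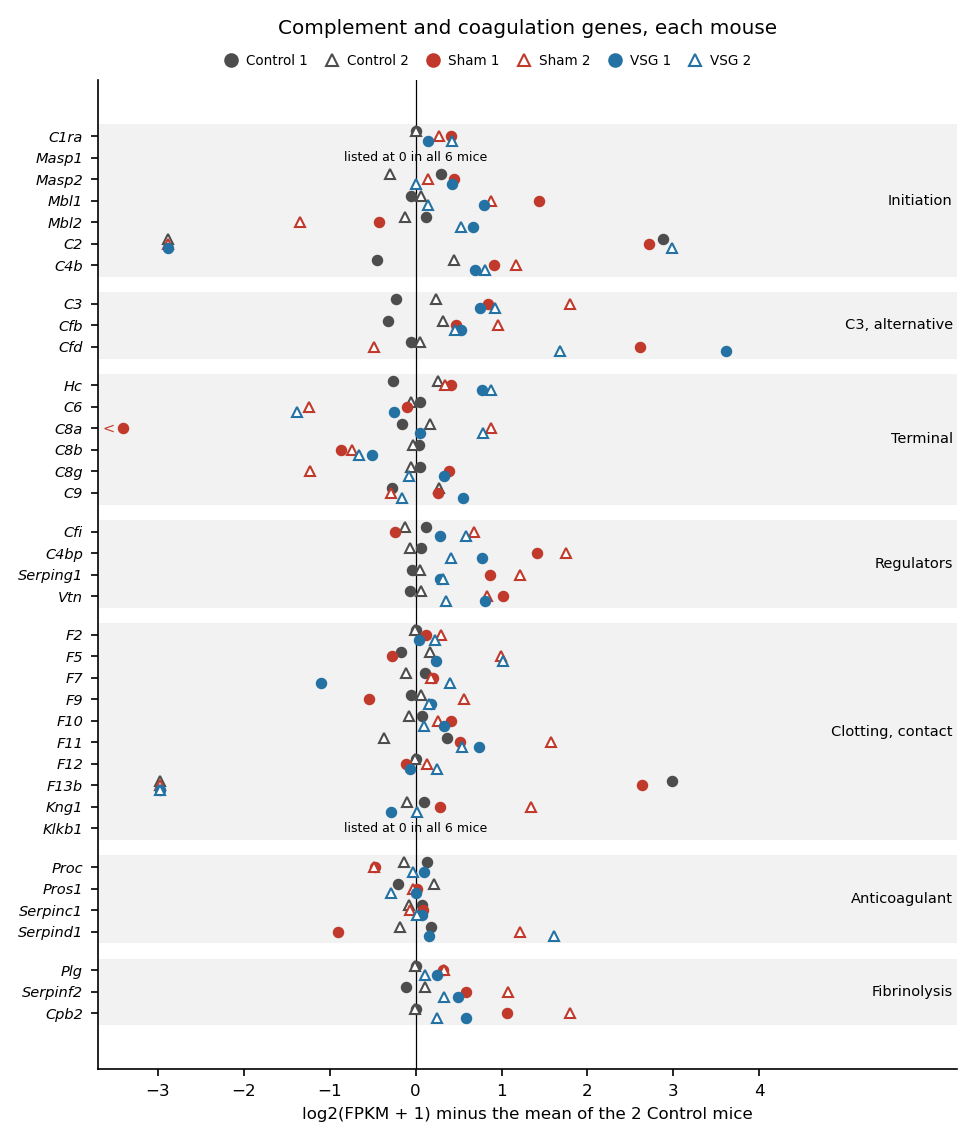
Level of each member in each of the 6 mice, as log2(FPKM + 1) minus the mean of the 2 Control mice, with members grouped by role, filled circles for the first and open triangles for the second mouse of a group. The Sham points of C4bp, Cpb2, Serping1 and Vtn lie to the right of both Control points, those of C8b and Proc to the left, and the point of C8a in Sham mouse 1, listed at 0, is drawn at the left edge with an arrowhead because it lies beyond the axis.

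**Figure D2:**
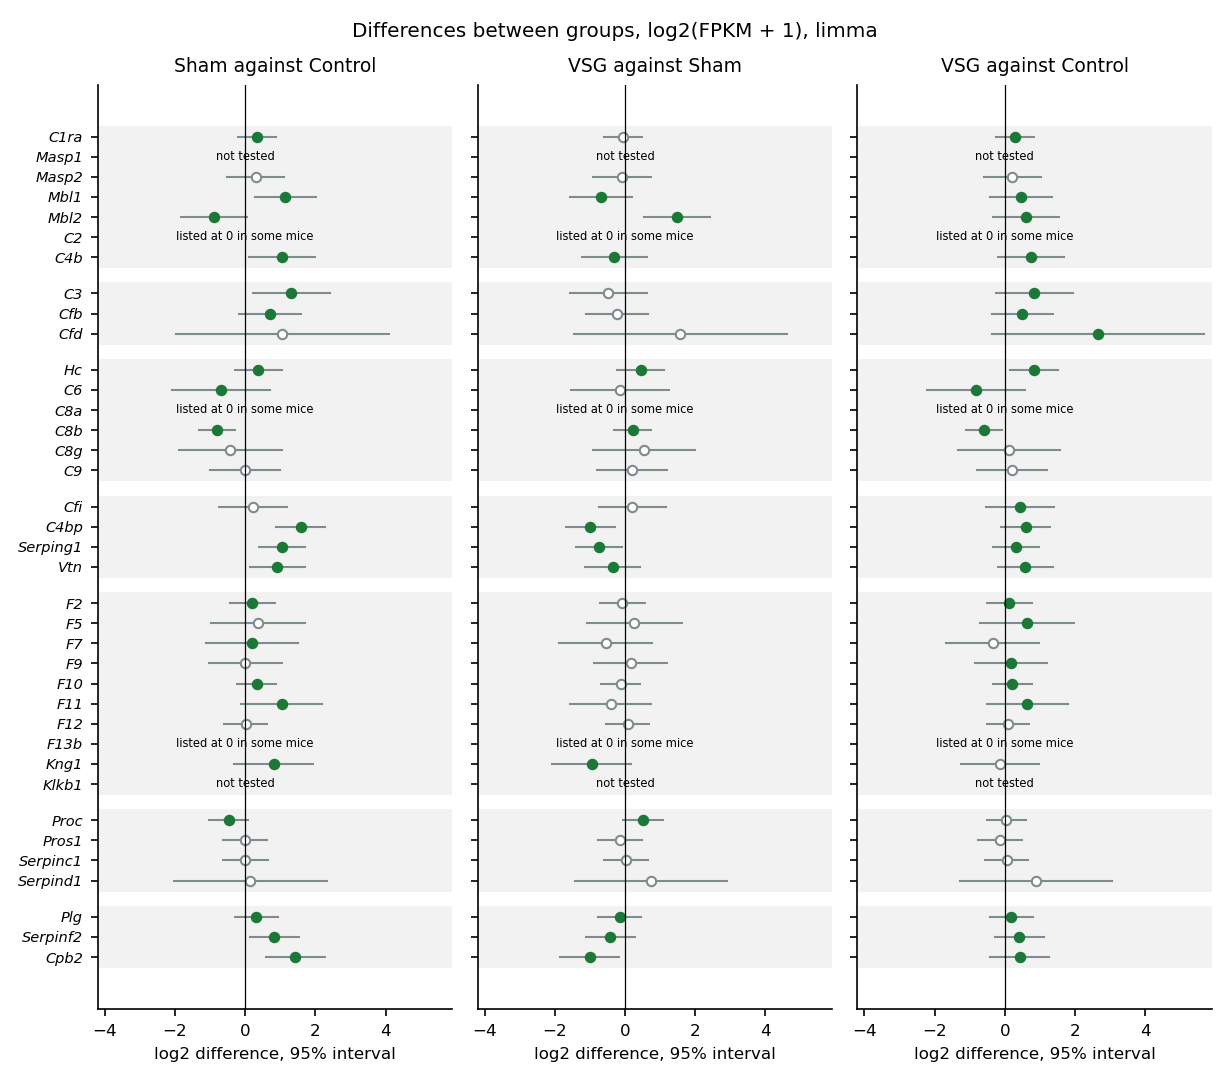
Log2 differences of the 3 comparisons for the members, with 95% intervals from limma, filled where both mice of a group lie on the same side of both mice of the other group and open where the groups overlap. The intervals of most members include 0, and C2, C8a and F13b are not drawn because they were listed at 0 in some mice.

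Among the initiators of the classical and lectin pathways, the mannose-binding lectins Mbl1 and Mbl2, which bind sugars on microbial surfaces, had opposite values in Sham mice. Mbl1 (chr14:41964745-41972248, plus strand, mm9) had an FPKM of 186 and 202 in Control, 525 and 357 in Sham and 336 and 215 in VSG mice. Its 2 Sham values lay above all 4 others, with a log2 difference of 1.15 ± 0.34 (SE, n = 2 mice a group, limma adjusted p-value 0.374) from Control and of -0.69 in VSG against Sham. Mbl2 (chr19:30307418-30314175, plus strand) had an FPKM of 232 and 195 in Control, 158 and 82.9 in Sham and 338 and 306 in VSG mice. Its Sham values were the lowest and its VSG values the highest of the 6 mice, without overlap between any groups. The log2 difference was -0.89 ± 0.36 in Sham against Control (limma adjusted p-value 0.470) and 1.48 ± 0.36 in VSG against Sham (0.830), the latter 2.67 times the Sham mean. Without Sham mouse 2, the difference of Mbl2 was -0.43 in Sham against Control and 1.02 in VSG against Sham, and without Sham mouse 1 the former was -1.35.

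The start regions of these paralogous genes share a short stretch, shown here because the transcripts of both differ in the pattern above. Among the 300 bases from 250 before to 50 after each start in the RefSeq promoter table (GRCm38.p6), located in mm9 by an exact match, the longest ungapped stretch with at most 2 mismatches was 27 bases long, beginning 37 bases before the start of Mbl1 and 71 before that of Mbl2. Capitals mark the 2 mismatches.
Mbl1: agttgCttattaaActggggttgaagg
Mbl2: agttgTttattaaTctggggttgaagg
A FAIRE peak lay over the start of Mbl1 in each group, at percentile 77.5, 80.6 and 69.6 of signal in the Control, Sham and VSG lists. No peak lay within 1000 bp of the start of Mbl2 in any group, and the nearest one, 3233 bp upstream, was in the Sham list alone.

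C4b (chr17:34865325-34880827, minus strand), the fourth component, which is cleaved in the classical and lectin pathways, had an FPKM of 139 and 261 in Control, 358 and 431 in Sham and 308 and 333 in VSG mice. All 4 mice on the high-fat diet lay above both Control mice, with log2 differences of 1.04 ± 0.36 in Sham (limma adjusted p-value 0.418) and 0.75 ± 0.36 in VSG (0.610) against Control. The 2 Control mice were far apart, and the difference of C4b in VSG against Control was 0.29 without Control mouse 1 and 1.20 without Control mouse 2. C4b has a close copy in the mouse genome, C4a, so that short reads may be split between them. C1ra, a protease of the C1 complex that has a similar copy in C1rb, ranged from 85.4 to 115, and the lectin pathway protease Masp2 from 133 to 223. C2, the protease subunit that forms the C3 convertase with C4, was listed at 53.0, 47.2 and 57.3 in 1 mouse of each group and at 0 in the other.

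C3 (chr17:57343397-57367559, minus strand), on which all pathways of activation converge, had an FPKM of 843 and 1163 in Control, 1778 and 3439 in Sham and 1663 and 1884 in VSG mice. The Sham and VSG values lay above both Control values and overlapped each other. The log2 difference was 1.32 ± 0.43 in Sham against Control (limma adjusted p-value 0.402), 0.84 ± 0.43 in VSG against Control (0.629) and -0.48 ± 0.43 in VSG against Sham (0.944). Sham mouse 2 had the highest C3 of the 6 mice, and without it the Sham difference was 0.84. Cfb, factor B of the alternative pathway convertase, ranged from 321 to 502 in Control, from 558 to 782 in Sham and from 550 to 580 in VSG mice.

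Cfd (chr10:79353598-79355401, plus strand), the protease factor D that cleaves factor B and is made mainly by adipocytes, had an FPKM of 0.685 and 0.823 in Control, 9.74 and 0.251 in Sham and 20.5 and 4.62 in VSG mice. The 2 Sham mice lay on either side of the Control mice, and both VSG mice lay above them. The log2 difference in VSG against Control was 2.65 ± 1.18 (limma adjusted p-value 0.580), the largest higher value of any member in this comparison and with the widest interval of those not listed at 0, from -0.38 to 5.67. Leaving out the first VSG mouse gave 1.68, leaving out the second gave 3.61, and it was 3.53 or 1.44 with 0.1 or 5 in place of 1 added to the FPKM. Of the adipocyte markers, Lep was listed at 0 in every mouse, and Adipoq and Plin1 at 0 in every mouse but VSG mouse 1, at 0.0220 and 0.0137. Cidea and Fabp4, the 2 adipocyte markers tested, were both higher in Sham and in VSG than in Control mice, Cidea at 0.0367 and 0.0441 in Control, 12.9 and 5.30 in Sham and 24.7 and 4.11 in VSG mice. The part of adipocytes in the values of Cfd was not tested.

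Of the 6 terminal components, which form the membrane attack complex, 5 had a lower fitted value in Sham than Control mice. For C9 it was lower by only -0.01 and for C8a through a listed 0. Hc had a higher one, so that 16.7% were higher, against 52.8% of all genes. Both Sham mice lay below both Control mice in 2 of the 6, against 20.4% of all genes, and above them in 1, against 25.4%. Hc (chr2:34838851-34916958, minus strand), the mouse gene for C5, had an FPKM of 116 and 167 in Control, 185 and 177 in Sham and 238 and 257 in VSG mice. The 3 groups did not overlap and VSG was the highest. The log2 difference was 0.83 ± 0.26 in VSG against Control (limma adjusted p-value 0.462), 0.45 ± 0.26 in VSG against Sham (0.944) and 0.38 ± 0.26 in Sham against Control (0.629). After quantile normalization the second of these was 0.18. C8b (chr4:104438922-104477153, plus strand), the beta chain of C8, had an FPKM of 171 and 163 in Control, 91.1 and 99.2 in Sham and 117 and 105 in VSG mice. Both groups on the high-fat diet lay below Control, by -0.81 ± 0.20 in Sham (limma adjusted p-value 0.328) and -0.59 ± 0.20 in VSG (0.483) on the log2 scale. The value of C8b in VSG against Sham was 0.22 ± 0.20, and it was 0.13 after median centring and -0.03 after quantile normalization.

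C6 (chr15:4677175-4765456, plus strand) had an FPKM of 116 and 108 in Control, 104 and 46.7 in Sham and 93.9 and 42.5 in VSG mice. The mice of the Sham group, and those of the VSG group, were over 2-fold apart. The size of each difference depended on which mouse was left out. The log2 difference of C6 was -0.68 ± 0.54 in Sham against Control (limma adjusted p-value 0.665) and -0.11 without Sham mouse 2. In VSG against Control it was -0.82 ± 0.54 (0.692), and -0.25 without VSG mouse 2. C9, whose protein polymerizes into the pore, ranged from 163 to 292 and C8g, the gamma chain of C8, from 141 to 434, both with overlapping groups in every comparison. C8a, the alpha chain, was listed at 0 in Sham mouse 1 and ranged from 136 to 281 in the other 5. With Sham mouse 2 left out, this listed 0 stood for the Sham group and C8a passed the FDR in Sham against Control and in VSG against Sham, with limma adjusted p-values of 0.0570 and 0.0725.

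Of the complement regulators, all 4 were higher in Sham than Control mice, against 52.8% of all genes, and 3 of them without overlap, against 25.4%. C4bp (chr1:132531350-132558209, minus strand), which binds C4b and speeds the decay of the classical C3 convertase, had an FPKM of 311 and 283 in Control, 792 and 999 in Sham and 506 and 395 in VSG mice. The 3 groups did not overlap, with the Sham mice highest and the VSG mice between. The log2 difference of C4bp was 1.58 ± 0.27 in Sham against Control (limma adjusted p-value 0.192, from 0.138 to 0.816 over the alternatives), which was 3.01 times the Control mean. In VSG against Sham it was -0.99 ± 0.27 (0.915, and at least 0.267 under every alternative), and in VSG against Control 0.59 ± 0.27 (0.591). Leaving out Sham mouse 2 gave 1.41 and -0.82 for the first 2 of these.

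C4bp was also a member whose start site differed in the peak lists. A peak of the Sham list, chr1:132558088-132558342, covered the start site at percentile 47.0 of signal in its list. No peak within 1000 bp of the start was in the Control or VSG list, and the nearest Control peak lay 1807 bp downstream. The start region of C4bp, from 250 bases before to 50 after the start in RefSeq, lies at chr1:132558146-132558445 on the minus strand, and 197 of its 300 bases were under the Sham peak. That of Hc lies at chr2:34916883-34917182 on the minus strand, and is shown beside it because Hc is another member whose start region held the letters marked, chosen after these were found. Capitals mark the letters GTTAATNAT or their reverse complement, the motif of HNF1, a transcription factor of hepatocytes, which began 64 bases before the start of C4bp and 77 before that of Hc.
C4bp: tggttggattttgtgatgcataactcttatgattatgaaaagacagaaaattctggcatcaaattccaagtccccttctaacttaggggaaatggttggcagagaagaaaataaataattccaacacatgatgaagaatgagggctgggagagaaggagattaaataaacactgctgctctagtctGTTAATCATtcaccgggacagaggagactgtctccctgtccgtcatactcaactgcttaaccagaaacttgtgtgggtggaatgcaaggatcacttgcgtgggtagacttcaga
Hc: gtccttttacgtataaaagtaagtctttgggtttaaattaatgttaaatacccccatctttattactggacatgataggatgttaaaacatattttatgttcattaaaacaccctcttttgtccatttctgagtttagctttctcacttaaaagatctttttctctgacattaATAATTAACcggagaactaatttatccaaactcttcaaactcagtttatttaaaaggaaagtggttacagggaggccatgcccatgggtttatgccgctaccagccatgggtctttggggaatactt
The Sham peak of Hc, chr2:34915848-34916070, was at percentile 32.8 with its middle 999 bp downstream of the start, and covered none of the bases shown. The start region of F9, which also had a peak in Sham mice alone, 78 bp upstream, held no HNF1 letters.

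Serping1 (chr2:84605544-84615601, minus strand), the C1 inhibitor, which also inhibits kallikrein and factor XIIa, had an FPKM of 468 and 500 in Control, 884 and 1126 in Sham and 591 and 604 in VSG mice. The groups did not overlap, and the VSG mice lay much nearer to the Control than to the Sham mice. The log2 difference was 1.04 ± 0.25 in Sham against Control (limma adjusted p-value 0.320), -0.74 ± 0.25 in VSG against Sham (0.944) and 0.31 ± 0.25 in VSG against Control (0.747). Vtn, vitronectin, which keeps terminal complexes out of membranes, ranged from 1061 to 1164 in Control, 1980 to 2248 in Sham and 1415 to 1950 in VSG mice. Cfi, the protease factor I that inactivates C3b and C4b, ranged from 232 to 274, 214 to 403 and 307 to 378.

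Of the 9 clotting and contact genes tested, none had an unadjusted p-value under 0.05 in any comparison, against 10.9%, 4.85% and 9.56% of all genes. Kng1 (chr16:23057938-23082141, plus strand), which encodes high molecular weight kininogen and releases bradykinin, had an FPKM of 1258 and 1096 in Control, 1424 and 2969 in Sham and 959 and 1185 in VSG mice. Both Sham mice lay above the 4 others, and Sham mouse 2 stood far above Sham mouse 1. The log2 difference of Kng1 was -0.95 ± 0.43 in VSG against Sham (limma adjusted p-value 0.944) and -0.58 after quantile normalization. Without Sham mouse 2 it was -0.42, and without Sham mouse 1 it was -1.48. One transcript of Kng1 was listed at 139 and 121 in Control mice and at 0 in the 4 others, while the other two carried the rest of the sum. At its start site, the peak of the Sham list was at percentile 91.5 of signal, against 63.4 in Control and 70.5 in VSG mice.

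F2, prothrombin, was the clotting protease with the highest FPKM, from 745 to 747 in Control, 814 to 914 in Sham and 766 to 873 in VSG mice. F10, factor X, which cleaves prothrombin, ranged from 124 to 174, F12 of the contact system from 198 to 254 and F9 from 51.4 to 112. F11, which activates factor IX, was at 22.3 and 13.1 in Control, 25.0 and 53.1 in Sham and 29.2 and 25.3 in VSG mice. The cofactor F5 was at 49.4 to 62.7, 45.7 to 112 and 65.7 to 114, and the initiating protease F7 at 38.2 to 44.7, 47.1 to 47.8 and 18.7 to 54.8. F13b, the carrier subunit of the enzyme that crosslinks fibrin, was listed at 61.2 in Control mouse 1 and 48.0 in Sham mouse 1 and at 0 in the 4 others. The 6 members that need vitamin K for carboxylation (F2, F7, F9, F10, Proc and Pros1) had median log2 differences of 0.10, -0.10 and 0.09 in the 3 comparisons, against 0.04, 0.08 and 0.13 over all genes, and none of them passed an unadjusted p-value of 0.05, for which the same shares of all genes apply.

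Among the 4 anticoagulants, both Sham mice lay below both Control mice for Proc alone, against 20.4% of all genes. Both VSG mice lay above both Sham mice for Proc alone, against 18.5% of all genes. Proc (chr18:32282783-32299224, minus strand), protein C, which inactivates factors Va and VIIIa, had an FPKM of 227 and 188 in Control, 149 and 148 in Sham and 222 and 203 in VSG mice. Both Sham mice lay below the 4 others, and the VSG mice lay within the Control range. The log2 difference of Proc was -0.47 ± 0.22 in Sham against Control (limma adjusted p-value 0.515) and 0.51 ± 0.22 in VSG against Sham (0.944), the latter 0.25 after quantile normalization. Serpinc1, antithrombin, was among the least variable members, from 737 to 827 over the 6 mice, with log2 differences of 0.01, 0.04 and 0.05 and 95% intervals that reached no further than 0.67 from 0 in any comparison. Pros1, the cofactor of protein C, ranged from 16.0 to 22.9. Serpind1, heparin cofactor II, ranged from 34.5 to 203, with the lowest and a high value in the Sham group.

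All 3 genes of fibrinolysis were higher in both Sham mice than in both Control mice, and lower in both VSG than in both Sham mice, against 25.4% and 9.78% of all genes. Cpb2 (chr14:75642094-75683358, plus strand) encodes the carboxypeptidase TAFI, which slows clot lysis by removing lysines that bind plasminogen. Its FPKM was 216 and 214 in Control, 451 and 747 in Sham and 323 and 256 in VSG mice. The groups did not overlap, and the VSG values lay nearer to Control than to Sham. The log2 difference of Cpb2 was 1.43 ± 0.33 in Sham against Control (limma adjusted p-value 0.290, from 0.152 to 0.908 over the alternatives), -1.01 ± 0.33 in VSG against Sham (0.944, and at least 0.234 under every alternative) and 0.42 ± 0.33 in VSG against Control (0.734). Leaving out Sham mouse 2 gave 1.07 and -0.65 for the first 2 of these. Serpinf2, the plasmin inhibitor, was at 226 and 263 in Control, 366 and 516 in Sham and 344 and 308 in VSG mice. Plg, plasminogen, varied less, at 720 and 716, 896 and 900, and 855 and 772.

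**Figure D3:**
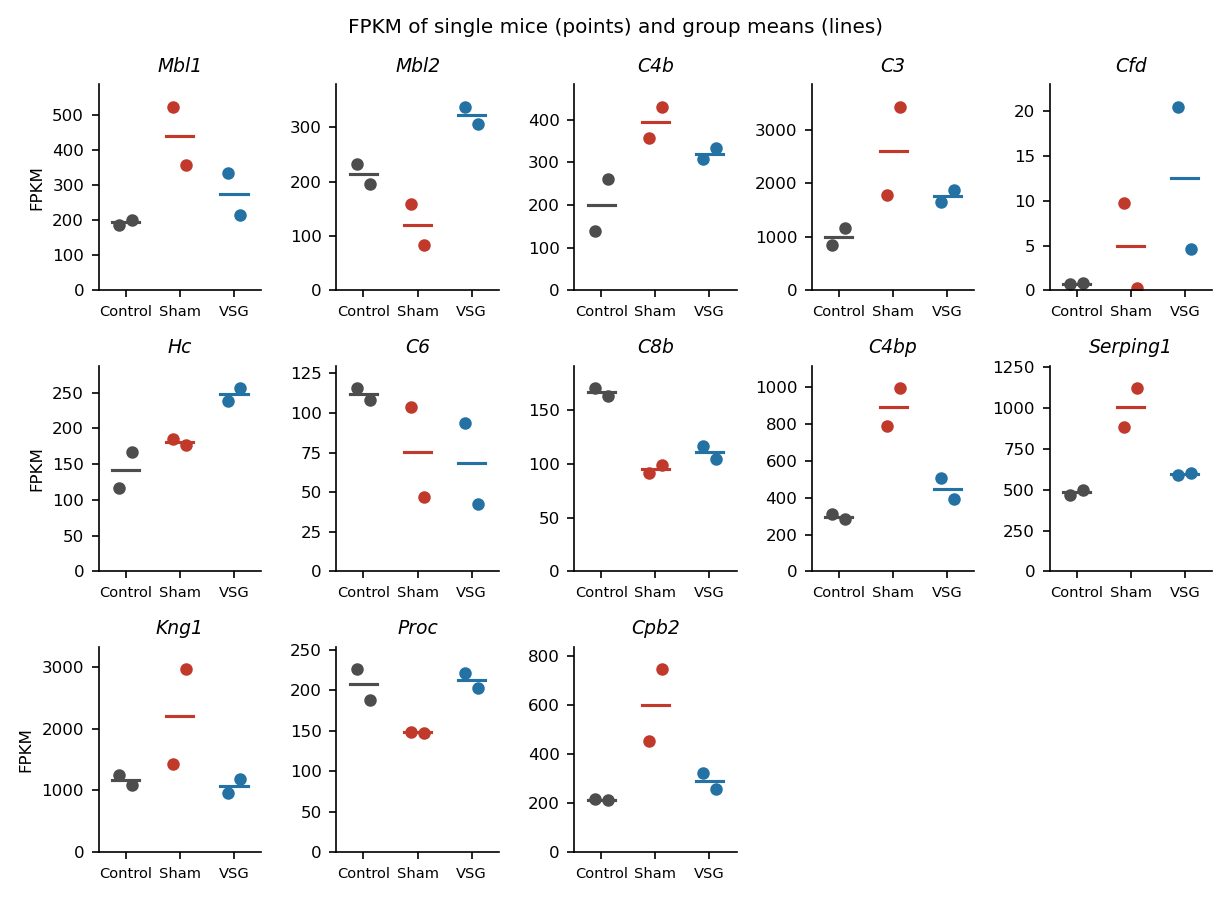
FPKM of the 13 members described mouse by mouse, with 1 point for each of the 2 mice of a group, a line at the group mean and an axis from 0. The Sham mice lie above all other mice for C4bp, Cpb2, Serping1, Mbl1, C4b and Kng1 and below them for Mbl2, C8b and Proc.

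A site upstream of Cpb2 was in the deposited list of sites called more accessible in Sham than VSG mice, which gives positions without values. The study called variable sites by a threshold on the DESeq2 p-value, from 2 mice of each group. The Cpb2 site was not among the deposited reversible sites. It lies at chr14:75636953-75637260, 4988 bp before the start of the gene. The same position was a peak of the Sham list, at percentile 79.7 of signal. A Control peak there was at percentile 51.9, and none was in the VSG list. The start itself held a peak in all groups, at percentile 57.2 in Control mice, 75.4 in Sham and 46.2 in VSG mice. The central 300 bases of the upstream site (chr14:75636957-75637256, plus strand, mm9) and the start region (chr14:75641844-75642143, plus strand) are shown because the transcript and both regions of accessible chromatin were described above. Capitals mark TTGCNNAA, the motif of C/EBP factors, and GGGANTTTC, that of NF-kB, or their reverse complements, which do not overlap here.
Cpb2 upstream site: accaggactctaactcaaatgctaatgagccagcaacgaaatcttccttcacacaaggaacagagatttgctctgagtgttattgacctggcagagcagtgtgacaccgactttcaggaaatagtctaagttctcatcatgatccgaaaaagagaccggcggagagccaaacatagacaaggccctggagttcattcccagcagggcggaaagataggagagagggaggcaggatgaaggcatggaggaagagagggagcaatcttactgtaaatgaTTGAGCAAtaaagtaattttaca
Cpb2 start region: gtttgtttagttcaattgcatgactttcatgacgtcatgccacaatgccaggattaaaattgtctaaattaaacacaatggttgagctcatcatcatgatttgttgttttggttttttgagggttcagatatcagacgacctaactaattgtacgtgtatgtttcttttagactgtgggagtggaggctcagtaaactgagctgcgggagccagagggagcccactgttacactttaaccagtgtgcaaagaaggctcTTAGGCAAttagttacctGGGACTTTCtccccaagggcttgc
The C/EBP letters began 4860 bases before and 8 bases after the start, and those of NF-kB 26 bases after it. Of the 300 bases of the start region, 156 were under a peak in Control mice, 197 in Sham and 179 in VSG mice.

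**Figure D4:**
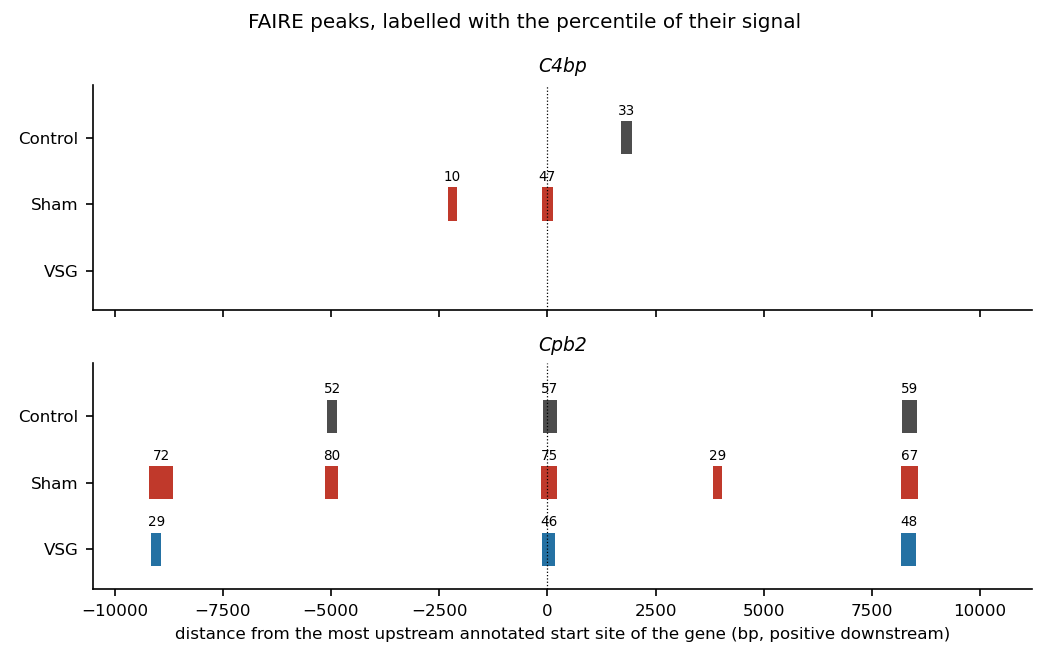
FAIRE peaks of the Control, Sham and VSG lists around C4bp and Cpb2, as bars drawn to scale by distance in bp from the most upstream annotated start site and labelled with the percentile of their signal in the list of the group. At C4bp only the Sham list has a bar at 0, and at Cpb2 the bar 4988 bp upstream is present in the Control and Sham lists and missing from the VSG list.

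Motifs were counted in the start regions of the members, since acute phase genes and genes of the hepatocyte are known targets of these factors. RefSeq start regions were found for 28 of the 37 members, 29 regions in all, and were compared with 32851 regions of all genes, on both strands. The HNF1 letters were found in 3 regions (C4bp, F13b and Hc), 10.3%, against 0.801% of all. The C/EBP letters were found in 8, 27.6%, against 10.8%, and the STAT letters TTCNNNGAA in 6, 20.7%, against 8.30%. The NF-kB letters were found in 1, that of Cpb2, 3.45%, against 1.11%, and the HNF4 letters CAAAGTCCA in 0, against 0.475%. These are matches of letters only, and a region without a match may hold other forms of the motif. Regions of other genes expressed in liver were not compared on their own, so that the shares cannot be called particular to the members.

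Start sites of the members were then compared across the 3 peak lists, each of which combines both mice of a group and has no error from replicates. Within 1000 bp of any annotated start of a gene, also one inside it, 26 of 37 members (70.3%) had a peak in Control mice, 31 (83.8%) in Sham and 29 (78.4%) in VSG mice. Of the 8413 tested genes with an annotated start, 90.5%, 90.2% and 91.4% had one, and of the 589 among these with a mean FPKM of at least 100, 91.7%, 93.0% and 91.5%. In all 3 lists a peak was found for 26 members, 70.3% against 88.1% of these genes. The peak was in the Sham list alone for C4bp, Hc and F9, 8.11% against 0.654%, in the Sham and VSG lists for Serpind1 and Klkb1, 5.41% against 0.963%, and in the VSG list alone for F11, 2.70% against 0.915%. No list held one for C6, C8a, Cfd, Mbl2 and F13b, 13.5% against 6.94%. The Klkb1 peaks, chr8:46380101-46380336 in Sham mice, lay at an annotated start inside the gene. No list held a peak at its outer start, chr8:46393820. Pros1, counted in all 3 lists, had Sham and VSG peaks but no Control peak within 500 bp. The Sham list is also the longest, with 52881 peaks against 42204 in Control and 44539 in VSG mice, and with an equal number from each list the counts were 26, 30 and 27. The members with a peak in Sham mice alone were then C4bp, Hc and Klkb1, while the peak of F9, at percentile 4.31, was lost. They were C4bp and F9 within 500 bp and F9 within 2500 bp, where a Control peak was near C4bp, and a Control and a VSG peak near Hc. Among the 50% of peaks with the highest signal, no peak of these 4 members was left, and Serpind1 had one in Sham mice alone.

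Signals were ranked within each list, since nothing says that they were scaled between groups. For the 26 members with a start site peak in every list, the median percentile was 75.3 in Control mice, 75.8 in Sham and 69.0 in VSG mice. The percentile was higher in Sham than Control for 17 members (65.4%), against 45.4% of 7414 genes, and higher in VSG than Sham for 8 (30.8%), against 63.8%. It was higher in VSG than Control for 9 members (34.6%), against 61.0%. These counts depended on the length of the lists. Ranked anew among an equal number of peaks from each list, the percentile was higher in Sham than Control for 8 of the 26 (30.8%), against 31.5% of 7233 genes, and higher in VSG than Sham for 13 (50.0%), against 71.5%. It was then higher in VSG than Control for 7 (26.9%), against 56.6%, so that the comparison of Sham with Control turned its direction. Gaps of 25 points or more between the lists as deposited were found for 6 of the 26 members (23.1%), against 8.11% of 7414 genes, Kng1 and Cpb2, described above, C9, F12, Masp1 and Pros1. In the order Control, Sham, VSG, the percentile was 47.9, 48.1 and 10.8 for C9, 84.8, 52.2 and 57.2 for F12, 69.0, 40.5 and 38.3 for Masp1, and 34.9, 61.4 and 52.8 for Pros1. The highest peak need not be the same in each list. For F12 the Sham value was from a peak 977 bp upstream, and the Sham peak at the start was at 41.2. The Pros1 values were from peaks near an annotated start inside the gene. At its outer start, chr16:62854133, Sham and VSG peaks were at 13.4 and 20.7, and the nearest Control peak was 1289 bp downstream. With equal numbers of peaks, gaps of 25 points or more were again found for 6 members (23.1%), against 14.1% of 7233 genes, with C2, at 70.7, 43.0 and 64.6, in place of Pros1. The percentile was then 47.9, 35.0 and 5.89 for C9, 84.8, 40.1 and 54.9 for F12, 69.0, 25.5 and 34.9 for Masp1, 63.4, 89.3 and 68.9 for Kng1 and 57.2, 69.1 and 43.3 for Cpb2. Over the genes and 10000 bp on each side, the lists held 162 Control, 196 Sham and 162 VSG peaks, a mean of 4.38, 5.30 and 4.38 for each member, against 3.72, 4.26 and 3.82 for each gene tested. Deposited variable sites lay within 100000 bp of 4 members (10.8%), against 10.5% of 8413 genes. Cpb2 was the 1 member near a site called more accessible in Sham than VSG mice, 2.70% against 1.81%. The others were 3 members, 8.11% against 8.82%, with sites all called more accessible in VSG than Sham mice: 2 near Cfd, 26107 bp downstream and 97404 bp upstream of its start, 2 near F12 and 1 at 60359 bp downstream of the start of Serping1, the last also in the list of reversible sites less accessible in Sham mice.

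**Figure D5:**
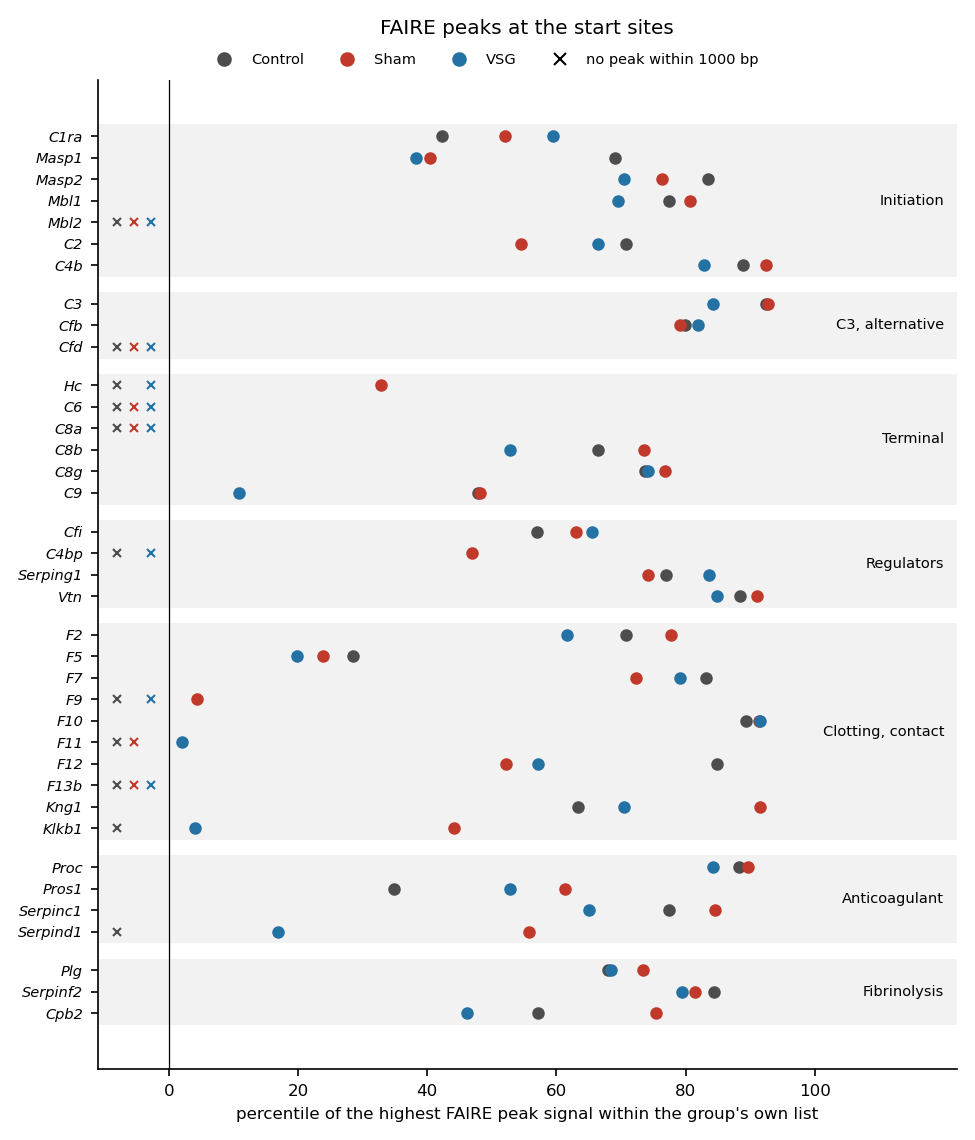
Percentile of the highest FAIRE signal within 1000 bp of the start sites of each member, ranked in the list of each group, with crosses at the left where a group has no peak there. The Sham point of Kng1 lies at 91.5, right of the other groups, and C4bp, Hc and F9 have a Sham point alone.

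Other genes of both cascades were examined from a list of 60, of which 52 were in the table and 31 were tested. None passed the FDR by limma, and 9, 2 and 8 of these 31 had an unadjusted p-value under 0.05 in Sham against Control, VSG against Sham and VSG against Control, against 10.9%, 4.85% and 9.56% of all genes. C1qb, a chain of the C1q recognition protein that macrophages make, was at 10.8 and 6.91 in Control, 30.6 and 34.1 in Sham and 21.0 and 60.8 in VSG mice. C1qb and C1qc, also in the Kupffer cell list, had the largest higher values in VSG against Control, with log2 differences of 1.93 and 1.94 (limma adjusted p-value 0.404 for both). C1s2, a protease of the C1 complex, was listed at 0 in Control mouse 1 and VSG mouse 1, so that its difference of 2.55 in Sham against Control rests on a listed 0. Colec11, a collectin of the lectin pathway, was at 11.7 and 11.8 in Control, 4.32 and 2.71 in Sham and 11.2 and 20.1 in VSG mice. Like those of Mbl2, the Sham values of Colec11 lay below all others, with log2 differences of -1.52 against Control (limma adjusted p-value 0.298) and 1.85 in VSG against Sham (0.591).

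Cd55, which dissociates C3 convertases on cell surfaces, was at 2.85 and 1.87 in Control, 1.04 and 0.337 in Sham and 0.671 and 0.978 in VSG mice, both groups on the high-fat diet lying below Control. Serpina10, an inhibitor of factor Xa, was at 250 and 248 in Control, 473 and 780 in Sham and 303 and 149 in VSG mice, with a log2 difference of -1.51 in VSG against Sham (limma adjusted p-value 0.944). Fgg, the gamma chain of fibrinogen, was at 4215 and 4015 in Control, 3660 and 6986 in Sham and 2897 and 1719 in VSG mice, the VSG values being the lowest. Fcna, a ficolin of macrophages, was at 43.7 in VSG mouse 2 and between 4.55 and 10.1 in the other 5 mice, so that its difference of 1.52 in VSG against Sham came mainly from 1 mouse. The genes of the other two fibrinogen chains were not analysed here.

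The spread between the 2 mice of a group is among the limits of these comparisons. Of the members above 0 in both mice of a group, 0 of 33 were 2-fold apart in the Control group, 8 of 32 in the Sham group (C6, C8g, Cfd, F5, F9, F11, Serpind1 and Kng1) and 4 of 33 in the VSG group (C6, Cfd, F7 and Serpind1), against 10.5%, 23.8% and 17.6% of all genes above 0 in both. C2 in every group, F13b in Control and Sham and C8a in Sham mice were listed at 0 in 1 mouse of the 2 and are not counted. Over the same genes, the median ratio between the mice of a group was 1.16 for the members and 1.18 for all genes in Control, 1.34 and 1.44 in Sham and 1.23 and 1.31 in VSG mice. Sham mouse 2 held the highest value of 14 members, VSG mouse 2 of 7 and Sham mouse 1 of 6. The lowest value was held by Control mouse 2 for 10 and by Control mouse 1 for 9.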

How the data were processed

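RNA-seq of the liver was available for 6 mice and FAIRE-seq for the same livers, 12 samples in all. Per RefSeq transcript and mouse, the authors used Cufflinks to compute FPKM values from reads mapped on mm9 by TopHat2. The labels state poly(A) enrichment and the study's methods ribosomal RNA depletion. For FAIRE the authors took peaks and their signal from F-seq on mm9, and peaks found in both mice of a group by IDR were retained, so that each list is pooled. The deposited lists of variable sites hold positions only. 2 deposited tables of DESeq fold changes and p-values, the authors' own comparisons, were not used. Tools named in the submitters' processing notes include Bowtie, bedtools, HTSeq and DESeq2, with versions not given in the sources used here.

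Transcripts of a gene were added up (34046 of 34933 found a symbol), and log2(FPKM + 1), which understates changes of low genes, was modelled by limma (version 3.58.1, R 4.3.3) using a mean-variance trend. All 6 mice were fitted together, since 2 mice a group give few degrees of freedom, for the 9869 genes that reached an FPKM of 1 in 2 mice or more. Adjusted p-values follow Benjamini-Hochberg over all these genes, two-sided, at an FDR of 10%. The fit and the motif search were checked on simulated data. Read depth is not stated with FPKM values. Start sites are those of protein-coding genes in GENCODE vM1 (NCBIM37, the same build as mm9). Percentiles rank a peak's signal within the list of its group. Other steps used Python 3.11.15, pandas 2.3.3 and matplotlib 3.10.9.

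All 37 members are accounted for. Values for each mouse are given for the 4 members with the largest log2 difference, in each direction and comparison, among those whose groups did not overlap, and for the 2 such genes among other genes of the cascades, of which 1 is not reported here. Other members for which values of single mice are printed were chosen after their values were seen. The members, lists and rules were chosen with earlier results of these data known. Alternatives covered the pseudocount, filters, transcript, scaling, variance model, block, mice left out and peak thresholds.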

Additional observations from a re-analysis of the deposited data

How the results depend on the processing

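No member passed the FDR of 10% under any alternative that kept all 6 mice, and among those that left out 1 mouse only C8a did, without Sham replicate 2, which left its listed 0 alone in the group. The number of all genes past the FDR was 28 in Sham against Control, 5 in VSG against Sham and 28 in VSG against Control. Requiring an FPKM of at least 1 in all 6 mice gave 0 in each comparison. Leaving out genes listed at 0 in any mouse gave 8, 0 and 2. Fitting only the 2 groups compared gave 17 and 0 in the first 2 comparisons. No filter gave 64 in Sham against Control, and pseudocounts of 0.1 and 5 gave 8 and 1 in VSG against Sham. Leaving out each mouse in turn gave 0 to 157, 0 to 50 and 0 to 34, the highest of each without Sham replicate 2, where the lone sample is assumed to vary like the other groups.

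With the replicate number as a block, 9, 0 and 10 genes were counted. Same-numbered mice of 2 groups had correlations of their deviations of 0.118 (Control and Sham), 0.064 (Control and VSG) and 0.039 (Sham and VSG), and the labels do not say that a number marks anything shared, so that the numbers were not taken to pair the mice.

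The median log2 difference over the members kept its sign throughout. In Sham against Control it was 0.30, and 0.25 with median centring, 0.26 with quantile normalization, 0.32 with an FPKM of 1 in all mice, 0.33 without genes listed at 0, and 0.26 to 0.39 with 1 mouse left out. In VSG against Sham it was -0.08, and -0.18, -0.16 and -0.12 with the first 3 of these and -0.16 to -0.08 with 1 mouse left out. In VSG against Control it was 0.29, and 0.15 with centring, 0.17 with quantile normalization and 0.28 to 0.32 with 1 mouse left out. Of 22 differences named gene by gene, 372 of 373 alternative values kept direction and side of the threshold. The other, C8b in VSG against Sham, was -0.03 with quantile normalization, and the cause was not tested. None of the 22 had passed the FDR, and several alternatives cannot change a log2 difference, so that this count says little about size. The difference of C6 in Sham against Control, for example, ranged from -1.25 to -0.11.

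Start site peaks were counted for 25 to 29 members in Control, 30 to 32 in Sham and 28 to 31 in VSG mice at windows of 500 and 2500 bp, and for 22, 24 and 22 with the 50% of peaks with the highest signal. Ranking anew among an equal number of peaks from each list, a choice made after seeing the data, moved the members with a higher percentile from 17 to 8 of 26 in Sham against Control and from 8 to 13 in VSG against Sham, since the longer Sham list was shortened most. Depth and the number of mice limit all differences, and FAIRE lists have no replicate values.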
